A study of Rattus norvegicus with 24 samples.

Results

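Embigin (Emb), basigin (Bsg) and the monocarboxylate transporters MCT1 (Slc16a1) and MCT4 (Slc16a3) were followed through disuse, recovery and repeated disuse in the muscle of aged rats. These are 4 of the 13458 gene symbols in the deposited table. Emb was selected on its CPM in these limbs, as the largest rise with disuse in earlier results, so its levels in the treated limbs are described without a test. The other genes were named with it, and where a symbol has several rows, the most abundant was taken. The RNA came from the tibialis anterior (TA), the main dorsiflexor muscle of the ankle, in both limbs of 12 male Fischer 344 rats aged 23 ± 1 months. In 9 rats, tetrodotoxin (TTX), which blocks voltage-gated sodium channels, was delivered to the left common peroneal nerve, so that the dorsiflexors could not be activated while the nerve stayed in place. Left TA was taken from 3 rats after 6 to 7 days of TTX (atrophy), from 3 rats after 9 further days without TTX (recovery) and from 3 rats after a second TTX period of 5 to 6 days that followed such a recovery (repeated atrophy). The right limbs of these 9 rats, which had no surgery, were the control group, and 3 sham rats, 1 at each time point, had the same surgery without TTX and gave a left (sham left) and a right (sham right) limb each. All rats were aged males, so the data hold no young or female comparison, and each library is bulk RNA from muscle tissue.

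Monocarboxylate transporters carry lactate, pyruvate and ketone bodies across the plasma membrane together with a proton. MCT4 is typical of glycolytic fibres and is known for lactate export, whereas MCT1 is more abundant in oxidative fibres and serves lactate uptake. Neither reaches the membrane alone: basigin, a glycoprotein of the immunoglobulin superfamily also called CD147, is the usual partner of both, and embigin is its relative and the preferred partner of MCT2. Embigin is also known to rise in denervated muscle and to promote sprouting of motor nerve terminals.

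Values are given as CPM, read counts scaled so that every library adds up to 1000000. Depth inferred from the steps between low values was 18900000 to 30900000 reads per library. A fold change (FC) is given as a log2 difference of log2(CPM + 1), which understates the change of low genes, and a gene was called a differentially expressed gene (DEG) when the fold change reached 1.2 and the adjusted p did not exceed 0.05 (limma, Benjamini-Hochberg over all rows). Both limbs of a rat are a pair, and "block" below means the animal as a fixed term, so that treated and right limbs are compared within a rat. When the animal was instead a random effect, no member lost a call. Levels are mean ± SD, with n = 9 in control and n = 3 in every other group. The summed CPM of 8 muscle fibre markers (among them Ckm, Acta1 and Myh4) was 191168 to 258229 in control, 79752 to 202189 after atrophy and 107833 to 147092 after repeated atrophy, and none of these markers was at 0 in any limb. The 10 most abundant genes held 24.3% to 32.8% of the CPM of control libraries but 13% to 25.6% after atrophy and 15.6% to 19.2% after repeated atrophy. Against control, the log2 FC of all rows had a median of 0.22 in atrophy, 0.02 in recovery and 0.20 in repeated atrophy, and this median was 0.17 in sham left against control and −0.15 in control against sham right, so values after scaling on the trimmed mean of log ratios (called rescaled) are given beside the results, and in them the first 3 medians were 0.00, 0.01 and −0.01. In bulk tissue, fewer cells of a type and less RNA per cell cannot be told apart.

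The sequences just upstream of the 4 genes are shown first, and their part in the expression of these genes was not tested. Each line holds the 250 bases before the annotated start (RefSeq promoter table, GRCr8), and capitals mark matches to the E-box CANNTG, which reads the same on both strands and is the letter pattern recognised by basic helix-loop-helix factors such as myogenin and Myc. The expression table itself uses the rn7 build, so these coordinates are not those of the measured rows. The Emb stretch is chr2:50803218-50803467 (plus strand), the Bsg stretch chr7:10651006-10651255 (minus strand), the Slc16a1 stretch chr2:194812410-194812659 (plus strand) and the Slc16a3 stretch chr10:106712078-106712327 (plus strand).
Emb: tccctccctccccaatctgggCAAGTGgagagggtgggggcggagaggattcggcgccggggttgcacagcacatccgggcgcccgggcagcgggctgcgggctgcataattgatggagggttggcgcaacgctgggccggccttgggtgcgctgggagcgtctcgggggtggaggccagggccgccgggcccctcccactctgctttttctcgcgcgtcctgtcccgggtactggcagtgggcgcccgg
Bsg: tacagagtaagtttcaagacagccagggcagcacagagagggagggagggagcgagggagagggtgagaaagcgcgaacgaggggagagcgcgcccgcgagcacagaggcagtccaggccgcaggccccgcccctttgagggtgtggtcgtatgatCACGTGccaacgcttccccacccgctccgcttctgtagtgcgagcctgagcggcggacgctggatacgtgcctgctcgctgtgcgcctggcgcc
Slc16a1: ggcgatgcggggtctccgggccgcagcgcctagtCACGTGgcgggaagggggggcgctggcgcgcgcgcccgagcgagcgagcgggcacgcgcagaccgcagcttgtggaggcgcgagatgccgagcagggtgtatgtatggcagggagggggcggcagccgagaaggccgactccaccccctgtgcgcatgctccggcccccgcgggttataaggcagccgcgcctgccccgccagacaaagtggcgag
Slc16a3: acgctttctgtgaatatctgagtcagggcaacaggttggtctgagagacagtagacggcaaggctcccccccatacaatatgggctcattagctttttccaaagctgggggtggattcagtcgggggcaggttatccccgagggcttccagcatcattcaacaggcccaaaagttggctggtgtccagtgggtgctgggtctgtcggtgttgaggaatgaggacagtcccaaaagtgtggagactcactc
The Emb stretch held 1 E-box, CAAGTG, beginning 229 bases before the start. Bsg and Slc16a1 each held 1 as well, in both genes of the form CACGTG, 94 and 216 bases before the start, and Slc16a3 held none. Of 33469 rat promoter stretches of the same length, 65.5% held a CANNTG and 5.59% a CACGTG, which is a special case of the first. GC content was 72% for Emb, 66.4% for Bsg, 74% for Slc16a1 and 54% for Slc16a3, and the median of all stretches was 51.2%. These are matches of letters and not measured binding sites.

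Embigin was scarce in control TA and abundant in silenced TA. The Emb gene (chromosome 2, 49070509 to 49125043, rn7, plus strand) was at 0.490 CPM in the lowest, 8.87 in the median and 19.8 in the highest control limb. After atrophy, the 3 limbs were at 251, 25.2 and 279 CPM, after recovery at 8.86, 5.73 and 46.0 CPM, and after repeated atrophy at 325, 340 and 204 CPM. All 6 limbs under TTX were above all 9 control limbs, but atrophy animal 2 was close to the highest of them, and it lay within the range of the sham limbs. Of the recovery limbs, 2 lay within the control range and the third was above it.

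The mean Emb level was 9.21 ± 6.55 CPM in control, 185 ± 139 after atrophy (log2 FC 3.96, SE 0.78), 20.2 ± 22.4 after recovery (0.88) and 290 ± 75.1 after repeated atrophy (5.16). These values chose the gene and carry no test. Rescaled, the differences were 3.63, 0.88 and 4.82, with the block 2.96, 2.19 and 4.86, and with the random effect 3.85, 1.03 and 5.13. Without recovery animal 3, the difference after recovery was 0.04. Without atrophy animal 2, the difference after atrophy was 5.07, and that between repeated atrophy and atrophy changed from 1.21 to 0.09. In order of the mean, the groups ran from repeated atrophy through atrophy, sham left (24.7 ± 24.9 CPM), recovery and sham right (15.8 ± 15.2 CPM) to control. Each group in that order overlapped with the next one.

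**Figure D1:**
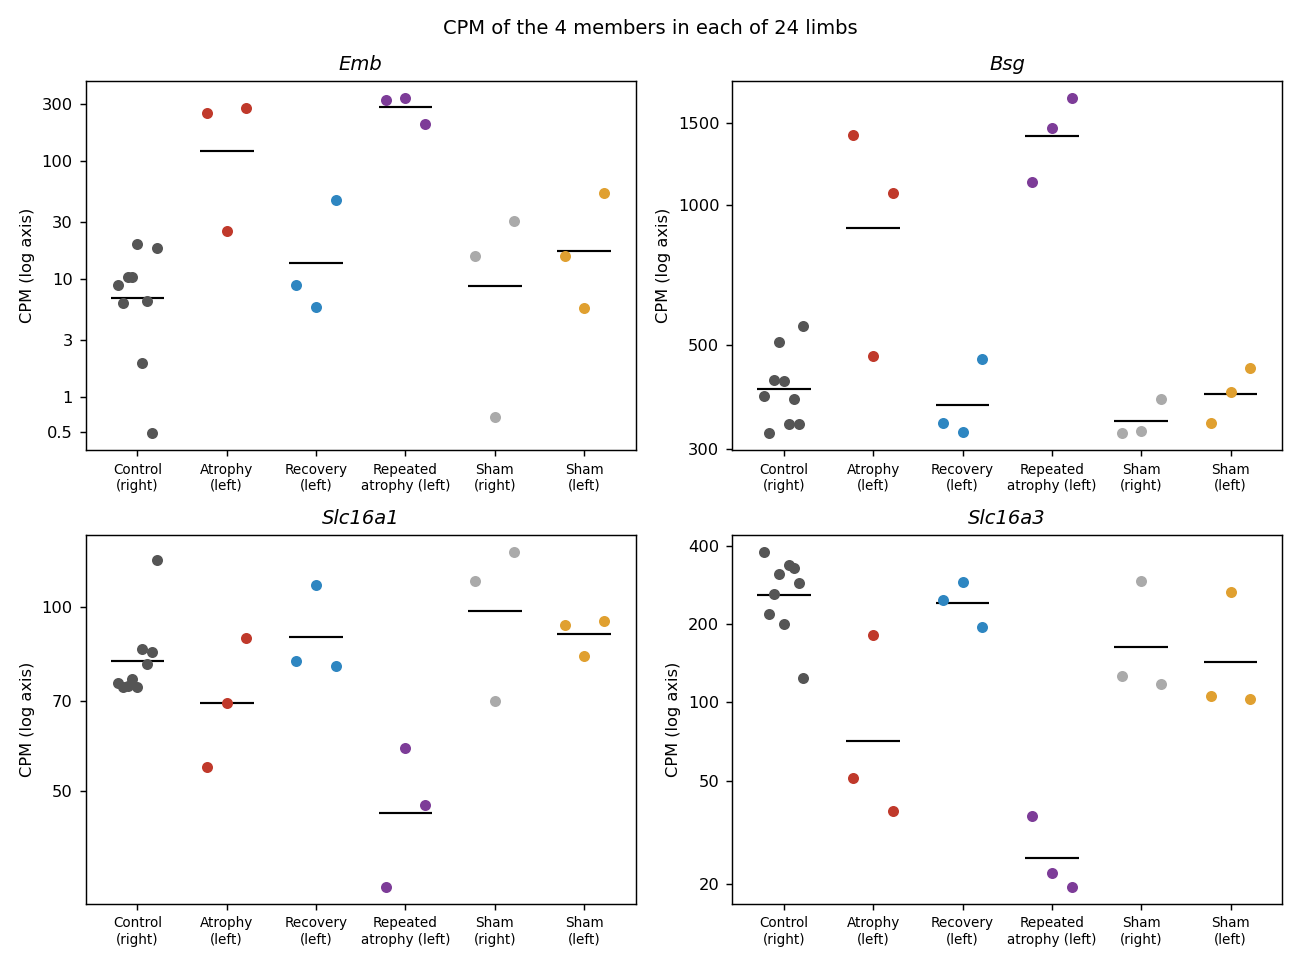
CPM of Emb, Bsg, Slc16a1 and Slc16a3 (log axes) in each of the 24 limbs by group, with the mean of log2(CPM + 1), taken back to CPM, as a line. The 3 repeated atrophy limbs lay above every control limb for Emb and Bsg and below every control limb for Slc16a1 and Slc16a3, while the second atrophy limb lay near the controls in all 4 genes.

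Embigin also varied between limbs that had no TTX. In the right limbs of the TTX animals it was 8.87 to 19.8 CPM at the atrophy time point, 0.490 to 6.49 CPM at the recovery time point and 6.25 to 10.4 CPM at the repeated atrophy time point. The right limbs of the sham animals were at 15.7, 0.678 and 31.0 CPM at the same 3 time points in turn. The limb at the recovery time point was thus the lowest in the sham animals too, but it was a single animal and the time points were not tested against each other. The left sham limbs were at 15.5, 5.62 and 52.9 CPM. Within the sham animals, where Emb could be tested because the choice did not use them, the left limb was higher than the right by 0.91 (SE 0.38, adjusted p = 0.936), and it was higher in 2 of 3 animals.

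Basigin rose with disuse from a level that was already high. The Bsg gene (chromosome 7, 9993170 to 10000388, minus strand) ranged from 324 to 551 CPM in control, with a median of 390. The atrophy limbs were at 1414, 474 and 1062 CPM, the recovery limbs at 341, 326 and 467 CPM and the repeated atrophy limbs at 1121, 1462 and 1696 CPM. Atrophy animal 2 and all recovery limbs lay within the control range, and the other 5 limbs under TTX lay above it.

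Mean Bsg rose from 408 ± 77.5 CPM in control to 983 ± 475 after atrophy (log2 FC 1.15, SE 0.25, adjusted p = 0.00829), a fold change of 2.22. It was at 378 ± 77.4 CPM after recovery (−0.11, adjusted p = 0.835), and it rose to 1426 ± 289 after repeated atrophy (1.80, SE 0.25, adjusted p = 0.000114), a fold change of 3.49. Rescaled, the rises were 0.78 (adjusted p = 0.0217) and 1.42 (adjusted p = 9.35e-05). With the animal as a block, which compares both limbs within a rat, the difference after atrophy was 0.99 and no longer passed (adjusted p = 0.157), while that after repeated atrophy did (1.77, adjusted p = 0.00351). As a random effect, the animal left both as DEGs (1.13, adjusted p = 0.00777, and 1.80, adjusted p = 7.28e-05). The table has a second Bsg row of the same coordinates with another transcript length, 1664 instead of 1316 bases, which was at 0.440 to 14.4 CPM. This minor row rose after repeated atrophy as well (1.45, SE 0.40, adjusted p = 0.00883) and differed from control by 0.56 after atrophy (adjusted p = 0.333). How reads were divided between the rows is not given in the sources used here.

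MCT4, the carrier of lactate export, fell where its chaperone rose. Slc16a3 (chromosome 10, 106213987 to 106222563, plus strand) ranged from 124 to 379 CPM in control, with a median of 288. It was at 51.1, 182 and 38.2 CPM after atrophy, at 247, 289 and 194 CPM after recovery and at 36.6, 22.2 and 19.5 CPM after repeated atrophy. The same 5 TTX limbs that were high in Bsg lay below all control limbs, and atrophy animal 2 lay within their range.

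Mean Slc16a3 fell from 272 ± 79.5 CPM in control to 90.4 ± 79.4 after atrophy (log2 FC −1.85, SE 0.37, adjusted p = 0.00651), a 3.61-fold decrease. At recovery it was 243 ± 47.7 CPM (−0.11, adjusted p = 0.893), and after repeated atrophy it fell to 26.1 ± 9.18 CPM (−3.31, SE 0.37, adjusted p = 2.65e-05), a 9.95-fold decrease. Rescaling gave −2.21 (adjusted p = 0.011) and −3.69 (adjusted p = 3.81e-05). With the animal as a block, the difference after atrophy was −1.56 and did not pass (adjusted p = 0.151), and the fall after repeated atrophy was −3.32 (adjusted p = 0.00228). The random effect gave −1.82 (adjusted p = 0.00623) and −3.32 (adjusted p = 1.79e-05).

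MCT1 changed less. Slc16a1 (chromosome 2, 192124309 to 192143827, plus strand) ranged from 73.8 to 119 CPM in control, with a median of 76.0, and 8 of the 9 limbs were at or below 85.2 CPM. It was at 54.7, 69.5 and 88.7 CPM after atrophy, at 81.4, 109 and 79.9 CPM after recovery and at 34.8, 58.7 and 47.3 CPM after repeated atrophy. The atrophy limbs lay on both sides of the lowest control limb, the recovery limbs lay within the control range, and the 3 repeated atrophy limbs lay below all control limbs.

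Mean Slc16a1 was 82.5 ± 14.5 CPM in control, 71.0 ± 17.05 after atrophy (log2 FC −0.22, adjusted p = 0.387) and 89.9 ± 16.1 after recovery (0.13, adjusted p = 0.706). It fell to 47.0 ± 12.0 CPM after repeated atrophy (−0.81, SE 0.18, adjusted p = 0.00202), a 1.76-fold decrease. Rescaled, the difference after atrophy was −0.59 and passed the test (adjusted p = 0.0436), and quantile normalization gave −0.60 (adjusted p = 0.0417), so whether Slc16a1 was a DEG after the first period depended on the scaling. After repeated atrophy it was −1.19 when rescaled (adjusted p = 0.000156) and −0.69 in the fit with the animal block (adjusted p = 0.017).

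Of the 3 members tested, 2 were DEGs after atrophy, against 22.6% of the 14031 rows tested, 0 after recovery, against 7.73%, and 3 after repeated atrophy, against 34.3%. None of the 3 had an unadjusted p below 0.05 after recovery in limma, while 25.1% of rows had. The repeated atrophy limbs lay wholly above the control limbs in 16.5% of rows, as in Bsg, and wholly below them in 3.87%, as in Slc16a1 and Slc16a3. The falls stood against smaller backgrounds than the rises: 2.33% of rows fell and 20.3% rose after atrophy, and 6.24% fell and 28.1% rose after repeated atrophy. On the rescaled values this split was nearly even, with 663 rises and 695 falls after atrophy and 1843 and 1695 after repeated atrophy, where the deposited CPM gave 2844 and 327 and then 3936 and 876. With the animal as a block, 0 of 14031 rows were called after atrophy, and with the animal as a random effect 3170 were. Leaving out atrophy animal 1 or 3 also took the 2 DEGs after atrophy to 0. Over the whole table, 4 of 14015 and 0 of 13994 rows were then called. Without animal 2, 4415 of 14011 rows were called. The 2 differences then became larger, at 1.60 for Bsg (adjusted p = 0.000112) and −2.52 for Slc16a3 (adjusted p = 6.83e-05).

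Recovery was also set directly against both TTX groups. From atrophy to recovery, Bsg fell by 1.26 on the log2 scale (SE 0.31, adjusted p = 0.0138) and Slc16a3 rose by 1.74 (SE 0.45, adjusted p = 0.017). Slc16a1 differed by 0.35 (adjusted p = 0.265), or 0.69 when rescaled (adjusted p = 0.0491). These 2 DEGs of 3 stood against 17.9% of all rows. Both were lost in the fit with the animal block, at adjusted p = 0.609 for Bsg and 0.635 for Slc16a3, but not with the random effect (adjusted p = 0.0186 and 0.0232). The block left 2 of 14031 rows called and the random effect 2035. The calls of Bsg and Slc16a3 were lost as well without atrophy animal 1 or 3 or without recovery animal 1 or 2, with adjusted p-values of up to 0.0737 and 0.103. These fits called 1339, 244, 744 and 567 rows in turn, against 2505 with all limbs. As single limbs were left out, Bsg ranged from −1.71 to −0.925 and Slc16a3 from 1.3 to 2.42.

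From recovery to repeated atrophy, all 3 members tested passed, against 27.2% of rows. Bsg rose by 1.91 (SE 0.31, adjusted p = 0.000995), Slc16a1 fell by 0.94 (SE 0.22, adjusted p = 0.00546) and Slc16a3 fell by 3.20 (SE 0.45, adjusted p = 0.000506). The adjusted p-values with the animal as a block were 0.0955, 0.152 and 0.0823 in turn, with differences of 1.69, −0.78 and −2.93, and with the random effect they were 0.00108, 0.00587 and 0.000556. Over the whole table, the block left 12 of 14031 rows called here and the random effect 3666. Described without a test, Emb was lower at recovery than after atrophy by 3.07 on the log2 scale and higher after repeated atrophy than at recovery by 4.28, and with the block these differences were −0.76 and 2.66.

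Between repeated atrophy and atrophy, none of the 3 members tested was a DEG in limma, against 0.0356% of rows (5 of 14031). The differences were 0.65 for Bsg (adjusted p = 0.781), −0.59 for Slc16a1 (adjusted p = 0.587) and −1.46 for Slc16a3 (adjusted p = 0.419). All 3 had an unadjusted p below 0.05 (0.0482, 0.0138 and 0.0046), as had 884 rows in all (6.3%). Without atrophy animal 2, they were 0.20, −0.59 and −0.79. The second response was thus further from control than the first on average in each member, but this was not separable from the spread between limbs. The differences of Bsg and Slc16a3 became smaller without atrophy animal 2, and that of Slc16a1 did not.

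**Figure D2:**
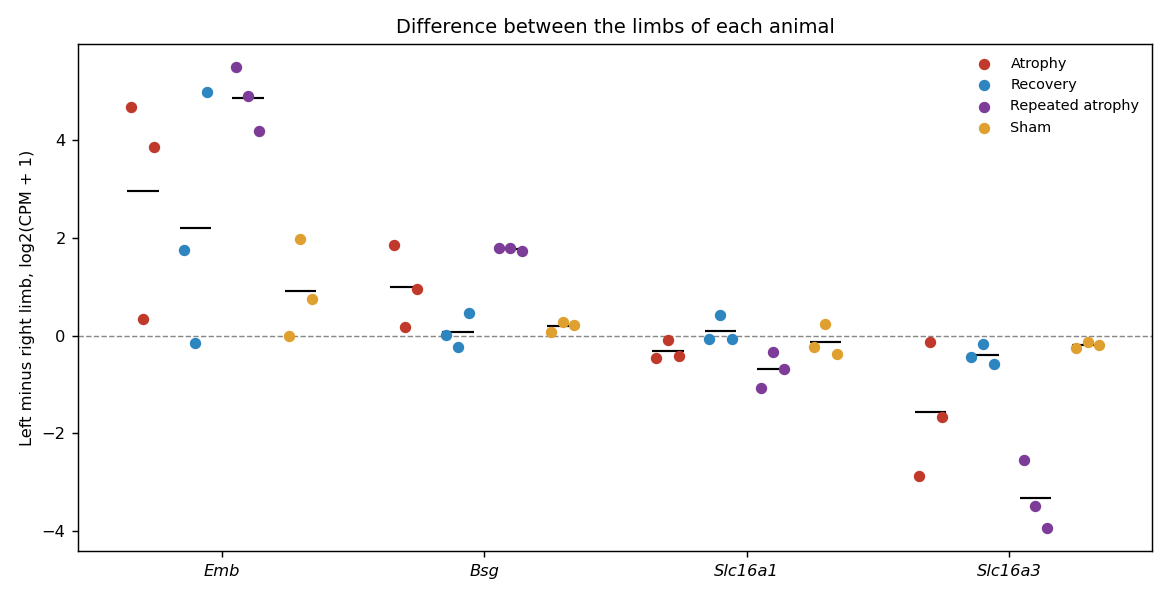
Difference between the left and the right limb of each of the 12 animals, in log2(CPM + 1), for the 4 members, with group means as lines. In the 3 repeated atrophy animals Bsg differed by 1.74 to 1.79 and Slc16a3 by −3.93 to −2.55, while atrophy animal 2 was close to 0 in all 4 genes.

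Limb against limb of the same rat, Bsg was higher on the left by 1.85, 0.17 and 0.95 after atrophy and by 1.79, 1.79 and 1.74 after repeated atrophy. The difference was nearly the same in the 3 repeated atrophy animals, whose right limbs differed from 324 to 507 CPM. Slc16a3 differed by −2.87, −0.14 and −1.67 after atrophy, by −0.44, −0.18 and −0.57 after recovery and by −2.55, −3.49 and −3.93 after repeated atrophy. It was lower on the left in all 12 animals, sham animals included, but by only −0.25, −0.13 and −0.19 in the shams.

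Emb differed by 4.68, 0.33 and 3.86 after atrophy, by 1.75, −0.15 and 4.98 after recovery and by 5.49, 4.90 and 4.17 after repeated atrophy. Recovery animal 3 thus had the second largest difference of all 12 animals, with 46.0 CPM on the left and 0.490 CPM on the right, the lowest value of any limb. The other members differed by 0.46 (Bsg), −0.08 (Slc16a1) and −0.57 (Slc16a3) in that animal. Slc16a1 was lower on the left in all 6 animals under TTX, with differences from −1.06 to −0.09, and it was higher on the left in 1 of 3 recovery animals. In the shams it differed by −0.24, 0.24 and −0.37, so it was lower on the left by more than in atrophy animal 2 in 2 of the 3.

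The position of atrophy animal 2 was shared by genes outside the family. The summed CPM of 11 genes known to respond to loss of nerve activity (acetylcholine receptor subunits, Musk, Ncam1, Myog, Runx1, Gadd45a and Hdac4) was 987 in its left limb, against 4019 and 4004 in atrophy animals 1 and 3, 4635 to 5515 after repeated atrophy and 189.6 to 675 in control. In the recovery animals the sum was 453, 302 and 1207, and animal 3, which had the most Emb of the 3, had the highest. Sham animal 3, which had no TTX, was at 1099 on the left and 827 on the right, so its left limb was above atrophy animal 2, and the other sham limbs were at 207.8 to 439. The part of the silencing itself in these differences was not tested. Of the 11 genes, 9 rose after atrophy, 1 (Chrne, the adult receptor subunit) after recovery and 11 after repeated atrophy, with median log2 FC of 2.07, 0.50 and 3.42 in turn (1.75, 0.49 and 3.06 when rescaled). Rises were 20.3%, 4.4% and 28.1% of all rows in turn. Without atrophy animal 1 or 3, when 4 of 14015 and 0 of 13994 rows were called in all, none of the 11 was called after atrophy. With limbs paired by animal, 0 were called after atrophy, 0 after recovery (Chrne 0.80, adjusted p = 0.17) and 11 after repeated atrophy, and the recovery call of Chrne also ended without recovery animal 1 or 3 or control limb 1 or 3 (adjusted p up to 0.174).

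The summed CPM of 5 markers of satellite cells, the muscle stem cells, lay above the control range in 5 of the 6 limbs under TTX. It was 20.5 to 50.4 in control, 75.1, 35.8 and 129 in atrophy animals 1, 2 and 3, 21.9 to 40.5 after recovery and 51.4 to 78.8 after repeated atrophy. In sham animal 3, which had the most Emb of the shams, it was 99.5 on the left and 84.0 on the right, and it was 23.6 to 35.5 in the other sham limbs. Myf5, a myogenic factor also expressed in muscle spindle fibres, rose after atrophy (2.63, adjusted p = 0.00651) and repeated atrophy (3.05, adjusted p = 0.000415), as did Vcam1 (0.67 in both, adjusted p = 0.0461 and 0.0318). Pax7, the defining marker, was at 0.506 CPM in control, 0.232 after atrophy and 0.740 after repeated atrophy and was not called (adjusted p = 0.505 and 0.578), and Cdh15 fell after repeated atrophy (−0.90, adjusted p = 0.00987). At recovery, when Bsg was near its control level, Vcam1 rose too (1.01, adjusted p = 0.0158) and Cdh15 fell (−1.09, adjusted p = 0.0155). With the animal as a block, 0 of 14031 rows were called after atrophy, so the atrophy calls of Myf5 and Vcam1 were lost. After recovery, the block left 9 rows of the whole table called. The part of these cells in the values of the members was not tested.

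Per kilobase of transcript, Bsg was the most abundant member in control, at 310 ± 58.9 CPM per kb, followed by Slc16a3 (128 ± 37.6), Slc16a1 (33.1 ± 5.83) and Emb (6.34 ± 4.51). After repeated atrophy, Bsg stood at 1084 ± 219.7 CPM per kb, Emb at 199 ± 51.6, Slc16a1 at 18.8 ± 4.80 and Slc16a3 at 12.3 ± 4.33. Emb thus went from the lowest to the second place and Slc16a3 from the second to the last. These levels describe RNA and not the amounts of the proteins.

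**Figure D3:**
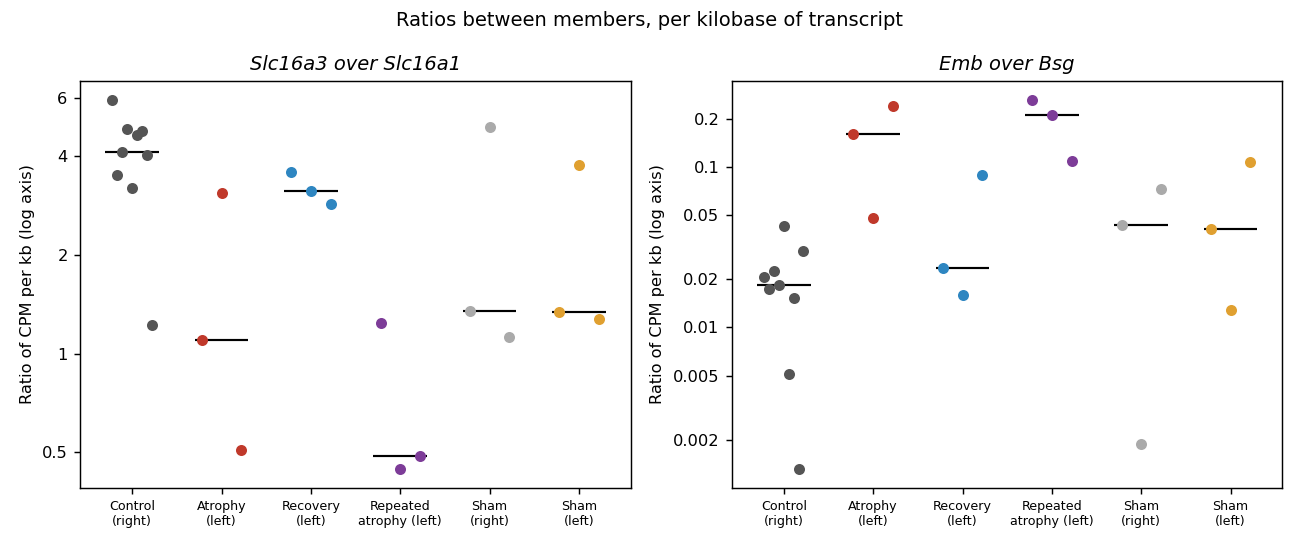
Ratio of Slc16a3 to Slc16a1 and of Emb to Bsg in each limb, both per kilobase of transcript (log axes), by group with the median as a line. Slc16a3 exceeded Slc16a1 in all 9 control limbs and was below it in 2 of 3 repeated atrophy limbs, while Emb stayed below Bsg in every limb.

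The ratio of MCT4 to MCT1 RNA per kilobase, which does not depend on the scaling of a library, was 4.03 ± 1.33 in control, with a range from 1.22 to 5.95. The atrophy limbs had ratios of 1.10, 3.08 and 0.507, the recovery limbs of 3.58, 3.14 and 2.86, and the repeated atrophy limbs of 1.24, 0.444 and 0.486. In 3 of the 6 limbs under TTX, there was less MCT4 than MCT1 RNA, and in no other limb. The sham animals had low ratios too, at 1.34, 3.76 and 1.27 on the left and 1.35, 4.90 and 1.12 on the right, so sham animals 1 and 3 were near or below the lowest control limb in both limbs. The summed CPM of 7 endothelial markers was 463 and 516 in the limbs of sham animal 1 and 286 and 339 in those of sham animal 3, against 223 and 199 in sham animal 2 and 185.5 to 245 in control. That of 5 adipocyte markers was 263 and 210 in sham animal 1 and 330 and 295 in sham animal 3, against 133 and 121 in sham animal 2 and 91.8 to 182 in control. The 8 muscle fibre markers summed to 194533 and 206183 in sham animal 1 and 156454 and 174004 in sham animal 3. Sham animal 2 was at 211411 and 234693, and control at 191168 to 258229. Macrophage markers summed to 244 and 222 in sham animal 1 and 117 and 153 in sham animal 3. They were at 212 and 93.7 in sham animal 2 and at 51.6 to 174 in control. The part of these cell types in the low ratios was not tested. The ratio of Emb to Bsg was 0.0193 ± 0.0123 in control. It was 0.149 ± 0.0956 in the atrophy limbs, 0.0429 ± 0.0403 in the recovery limbs and 0.194 ± 0.0784 in those of repeated atrophy.

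The sham limbs showed how much the members vary without TTX. Against control, sham left differed by −0.03 for Bsg (adjusted p = 0.937), 0.15 for Slc16a1 (adjusted p = 0.622) and −0.86 for Slc16a3 (adjusted p = 0.326), and Emb was higher by 1.19 with no test. Sham left Slc16a3 was at 106, 265 and 103 CPM, and the limbs with low values were also low on the right (126 and 117 CPM, against 291 in the other animal). None of the 3 members tested was a DEG in limma, as were 0% of 13822 rows, with 1 member (Slc16a3) and 1904 rows (13.8%) at an unadjusted p below 0.05. Between the limbs of the sham animals, none of 4 members was a DEG, as were 0% of 13483 rows, with 1 member (Slc16a3, −0.19, adjusted p = 0.936) and 576 rows (4.27%) at an unadjusted p below 0.05. Between the right limbs of TTX and sham animals the count was 0 of 3, as were 0% of 13848 rows, with 0 members and 1132 rows (8.17%) at an unadjusted p below 0.05.

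The other members of the SLC16 family were mostly rare in this muscle. Of 14 further monocarboxylate and related carriers, 11 had a tested row. Slc16a7 (MCT2), the usual partner of embigin, was at 0.288 ± 0.216 CPM in control and 1.33 ± 1.38 after atrophy, and it rose there (log2 FC 0.71, SE 0.24, adjusted p = 0.0373) but not past the threshold when rescaled (0.54, adjusted p = 0.116). Leaving out single limbs gave differences after atrophy from 0.266 to 1.07, with an adjusted p of up to 0.441. Slc16a7 was at 0.753 and 0.751 CPM after recovery and repeated atrophy (adjusted p = 0.26 and 0.161). After repeated atrophy, Slc16a6 rose from 4.87 ± 1.19 to 10.6 ± 2.84 CPM (0.98, SE 0.25, adjusted p = 0.00611) and Slc16a4 from 0.682 ± 0.327 to 2.83 ± 2.03 CPM (1.02, SE 0.36, adjusted p = 0.0353), and neither passed when rescaled (adjusted p = 0.0611 and 0.0931). The list thus had 1 rise after atrophy, 0 calls after recovery in limma (0 at an unadjusted p below 0.05) and 2 rises after repeated atrophy on the deposited CPM, and on rescaled values 0, 0 and 1 fall, that of the aromatic amino acid carrier Slc16a10 (−0.96, adjusted p = 0.0251). For comparison, 20.3% of all rows rose after atrophy, 7.73% were called after recovery and 28.1% rose after repeated atrophy on the deposited CPM. The list had a median log2 FC of 0.18, 0.01 and 0.01 in the 3 groups in turn, near that of all rows after recovery and below it after repeated atrophy. Under the block, Slc16a6 alone was called after repeated atrophy.

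Among 12 genes that bind or act with basigin, 5 rose after atrophy, 3 rose and 1 fell after recovery and 5 rose after repeated atrophy. The shares of all rows were 20.3% for rises after atrophy, 4.4% and 3.33% for rises and falls after recovery and 28.1% for rises after repeated atrophy. On the rescaled values, 2 of the 12 rose after atrophy and 4 after repeated atrophy, against 663 and 1843 of 14031 rows. With the animal as a block, 0 and 3 of the 12 did. The list had a median log2 FC of 0.28, 0.38 and 0.36 in the 3 groups in turn, and of 0.41 in sham left against control, so its shift from control was as large in limbs without TTX. This median was 0.0556 in sham left against sham right and −0.492 in control against sham right. In sham left against control, 0 of the 12 were called in limma and 6 had an unadjusted p below 0.05 (as had 13.8% of all rows), Ppia (1.00, adjusted p = 0.274), Cd44 (0.80, adjusted p = 0.264) and Ppib (0.58, adjusted p = 0.24) among them. The cyclophilin gene Ppia, whose secreted product is a ligand of basigin, rose from 87.6 ± 29.1 CPM to 306 ± 149 after atrophy (log2 FC 1.72, SE 0.29, adjusted p = 0.00506). In repeated atrophy it rose to 334 ± 36.0 CPM (1.98, SE 0.29, adjusted p = 0.000163). Ppia has many processed copies, and how reads shared with them were counted is not given in the sources used here. Itgb1, an integrin subunit, rose from 186 ± 31.4 to 334 ± 106 and 334 ± 61.7 CPM (0.80 and 0.84, adjusted p = 0.0107 and 0.00311). Neuroplastin (Nptn), the third relative of basigin and embigin, was at 103 ± 23.3 CPM in control and 123, 120 and 131 CPM on average after atrophy, recovery and repeated atrophy, and it was not a DEG in any of them (adjusted p = 0.68, 0.56 and 0.28 in turn).

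After recovery, the rises in that list were those of Cd44, a hyaluronan receptor (1.23, SE 0.26, adjusted p = 0.0107), of the matrix protease gene Mmp2 (1.29, SE 0.29, adjusted p = 0.0136) and of the cyclophilin gene Ppib (0.53, adjusted p = 0.0411). Slc3a2 is the heavy chain of amino acid carriers that associates with basigin. It rose after atrophy (0.90, adjusted p = 0.0109) but fell after recovery (−0.74, SE 0.22, adjusted p = 0.0466). As single limbs were left out, the adjusted p of this fall reached 0.168. The summed CPM of 6 fibroblast markers was 1040 to 1948 in the recovery limbs and 202 to 546 in control, and that of 8 macrophage markers was 170 to 389 and 51.6 to 174. None of these markers was at 0 in any limb, and their part in the rises was not tested. Under the block, none of the 4 genes passed.

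**Figure D4:**
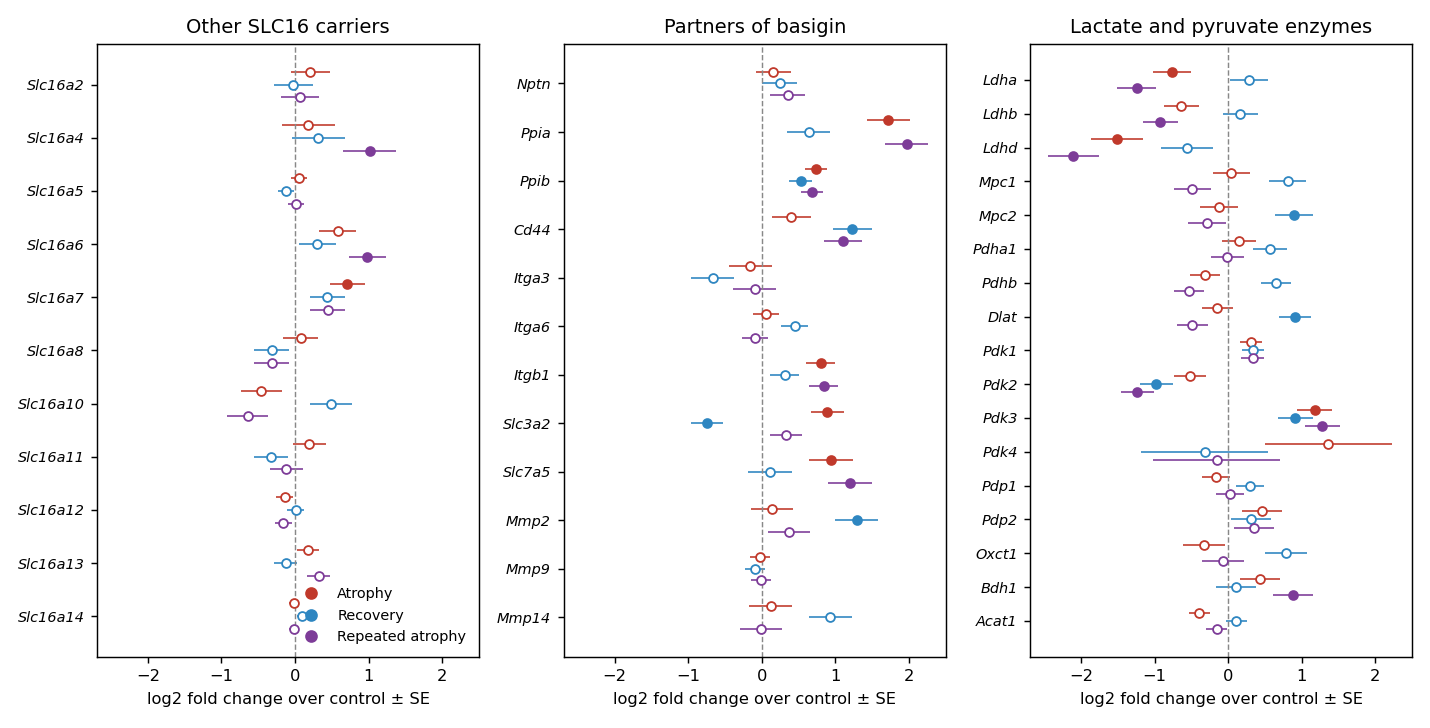
Log2 FC over control with SE for the other SLC16 carriers, partners of basigin, and enzymes and carriers of lactate and pyruvate, after atrophy, recovery and repeated atrophy (filled points passed the test, open points did not). Ldha, Ldhb and Ldhd were lower after repeated atrophy and Pdk3 was higher in all 3 groups.

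Among the genes that make and use lactate, falls outnumbered rises in both TTX groups in the fit without a block. Of 17 enzymes and mitochondrial carriers of lactate, pyruvate and ketone bodies, 1 rose and 2 fell after atrophy, 3 rose and 1 fell after recovery, and 2 rose and 4 fell after repeated atrophy. On the rescaled values these were 1 and 5, 2 and 1, and 1 and 8. The median log2 FC was −0.15, 0.31 and −0.16, against the 0.22, 0.02 and 0.20 of all rows. For the deposited CPM, the whole table had 20.3%, 4.4% and 28.1% of its rows rising in the same order of groups. Falling rows made up 2.33%, 3.33% and 6.24%, and calls in either direction 22.6%, 7.73% and 34.3%. Whether the list differed from the whole table in its share of calls was not tested. Ldha, the muscle lactate dehydrogenase, fell from 2937 ± 676 CPM in control to 1769 ± 689 after atrophy (−0.77, SE 0.26, adjusted p = 0.0404). This difference ranged from −1.05 to −0.466 as single limbs were left out, with an adjusted p of up to 0.295. Repeated atrophy took Ldha to 1204 ± 57.0 CPM (−1.25, SE 0.26, adjusted p = 0.00148), and it was at 3469 ± 213 after recovery (0.28, adjusted p = 0.539). Ldhb, the heart type, was lower by −0.64 after atrophy (adjusted p = 0.0578) and fell after repeated atrophy (−0.92, adjusted p = 0.00583). Ldhd, which acts on D-lactate, fell after both (−1.51, adjusted p = 0.00939, and −2.10, adjusted p = 0.000326).

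Among the kinases that inhibit pyruvate dehydrogenase, Pdk2 fell after recovery (−0.98, adjusted p = 0.0152) and repeated atrophy (−1.24, adjusted p = 0.000561). The much rarer Pdk3 rose from 1.18 ± 0.345 CPM to 4.32 ± 2.62, 3.06 ± 0.438 and 4.28 ± 0.873 in atrophy, recovery and repeated atrophy (1.18, 0.91 and 1.28, with adjusted p = 0.00651, 0.0269 and 0.000668), and it was at 2.40 ± 1.201 CPM in sham left (0.60, adjusted p = 0.305). The pyruvate carrier subunit Mpc2 (0.89, adjusted p = 0.0417) and Dlat, a subunit of pyruvate dehydrogenase (0.91, adjusted p = 0.0175), rose after recovery. Bdh1, a ketone body dehydrogenase at 0.587 ± 0.366 CPM in control, rose after repeated atrophy (0.88, adjusted p = 0.0173). As single limbs were left out, the adjusted p of Bdh1 reached 0.154. In sham left, Bdh1 was at 1.25 ± 0.656 CPM (0.49, adjusted p = 0.355). With the animal as a block, the calls of this list after atrophy and recovery were lost, and those after repeated atrophy numbered 2 rises and 4 falls as before.

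Genes that handle the proton carried with lactate were few. Of 7 tested, 0 were called after atrophy in limma, with 3 at an unadjusted p below 0.05 (as had 37.1% of all rows), 2 rose after recovery, and 1 rose and 1 fell after repeated atrophy. Over all rows, 22.6% were called after atrophy, 4.4% rose after recovery, and 28.1% rose and 6.24% fell after repeated atrophy. The muscle carbonic anhydrase gene Car3 rose from 1253 ± 363 CPM to 3694 ± 1422 after recovery (1.55, SE 0.39, adjusted p = 0.0231) and, in repeated atrophy, to 3898 ± 1524 CPM (1.62, SE 0.39, adjusted p = 0.00424), and the membrane form Car14 fell after repeated atrophy (−0.86, SE 0.15, adjusted p = 0.000436). Car14 was at −0.63 in sham left against control (adjusted p = 0.316). Car2 rose after recovery (1.14, adjusted p = 0.013). With limbs paired by animal, both calls after recovery were lost, at 1.24 for Car3 (adjusted p = 0.169) and 0.94 for Car2 (adjusted p = 0.232), while those of Car3 and Car14 after repeated atrophy stayed (adjusted p = 0.0119 and 0.00484). Leaving out recovery animal 1 or 2 also ended both recovery calls, as leaving out animal 3 did for Car3. Rescaled, Car2 and Car3 again rose after recovery and Car3 rose and Car14 fell after repeated atrophy, and Car14 fell after atrophy as well (−0.74, adjusted p = 0.0206).

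Of 11 regulators known to act on these transporters or on energy metabolism, 4 rose and 1 fell after atrophy, 0 rose and 1 fell after recovery, and 4 rose and 5 fell after repeated atrophy. Rescaled, the counts were 1 and 2, 1 and 1, and 2 and 5, and with the animal as a block 0 and 0, 0 and 0, and 2 and 4. The median log2 FC was −0.36, −0.17 and −0.52 in turn. Ppargc1a, the coactivator PGC-1α that raises MCT1 in muscle, was at 4.32 ± 1.40 CPM in control and fell to 1.34 ± 0.577 after repeated atrophy (−1.17, SE 0.27, adjusted p = 0.00292, and 0.0676 with the animal as a block). Its partner Esrra fell after both TTX periods (−0.66, adjusted p = 0.0282, and −0.91, adjusted p = 0.00254), and it was at −0.58 in sham left against control (adjusted p = 0.327). Hif1a, whose product activates Slc16a3 in low oxygen, rose on the deposited CPM (0.60, adjusted p = 0.0199, and 0.49, adjusted p = 0.0338) but was at 0.25 and 0.12 when rescaled (adjusted p = 0.283 and 0.581) and at 0.46 in sham left against control (adjusted p = 0.282), while its relative Epas1 fell after repeated atrophy (−1.47, adjusted p = 0.00286). Myc rose from 10.8 ± 9.28 to 31.6 ± 11.7 and 29.2 ± 3.94 CPM (1.70, adjusted p = 0.0153, and 1.65, adjusted p = 0.00921), with rescaled adjusted p-values of 0.049 and 0.0315, and it was at 32.2 ± 35.2 CPM in sham left (1.18, adjusted p = 0.407).

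The genes whose pattern over the 24 limbs was most like that of each member were found by Pearson's r of log2(CPM + 1) among 8259 rows with a mean of at least 5 CPM. Rpl3 and Eef1a1 have many processed copies, whose reads may have been shared. The limbs share the group structure, so these correlations describe the common course and carry no p. For Emb they were Rpl3 (r = 0.968), Eef1a1 (0.963), Spg21 (0.961), Tmem38b (0.960) and Mt1 (0.957). Rpl3 went from 134 CPM in control to 550, 157 and 726 CPM after atrophy, recovery and repeated atrophy, and Mt1, a metallothionein, from 5.19 to 51.6, 7.30 and 131 CPM. Bsg was at rank 467 for Emb (r = 0.876), and of 4 genes that respond to loss of nerve activity, Myog (rank 30, r = 0.942) and Chrna1 (rank 251, 0.900) were ahead of it and Ncam1 (rank 802, 0.844) and Chrng (rank 2058, 0.743) behind it.

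For Bsg the closest row was the acetylcholine receptor subunit Chrnb1 (r = 0.982), followed by Tmod1 (0.969), Kcnn3 (0.964), Otub1 (0.963) and the calcium channel subunit Cacnb1 (0.961). For Slc16a3 they were Dhrs7c (0.965), Cd1d1 (0.958), Perm1 (0.958), Gpd1 (0.957) and Ldb3 (0.954), all of them low after repeated atrophy. Slc16a1 had no row as close, with Retsat (0.809), Nfil3 (0.806), Inpp5e (0.805), Rnf144b (0.800) and Fzd4 (0.799). Between members, r was −0.899 for Emb and Slc16a3, −0.883 for Bsg and Slc16a3 and 0.463 for the transporters Slc16a1 and Slc16a3. By rank (Spearman's rho) the values were −0.863, −0.615 and 0.163 in turn.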

How the data were processed

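The authors sequenced directional polyA libraries of 24 TA muscles. In Partek Flow they removed ribosomal and transfer RNA reads with Bowtie2 (2.2.5 in the submitters' processing notes), aligned the rest to rn7 with STAR and normalized for differential expression with DESeq2. The deposited values are CPM, although the methods describe a median of ratios normalization. Each column sums to 1000000. Of 27 value columns, 3 have names that match no sample here and were not used. Between 87.1% and 88.7% of low values were whole multiples of the smallest step (tolerance 0.02), so reads were not recovered and no count test was run.

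Of 14271 rows, 28 duplicates were dropped. Rows above 0 in at least 3 of the limbs fitted were tested on log2(CPM + 1) with limma 3.58.1 in R 4.3.3, with the intensity trend. Control, atrophy, recovery and repeated atrophy were fitted together without a block, sham left against sham right with the animal as a block. Each limb is labelled with its animal, so left and right limbs are true pairs. Their deviations from the group means correlated at a mean r of 0.27 over 10619 rows (0.74 in sham and 0.12 in TTX animals). The 3 animals per group limit the precision. The code of the fits was also run on simulated data, and the outcome is not given here.

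The members and gene lists were chosen with earlier results of these data known. A gene of a list is not reported here and was left out of that list's counts and sums. Named were the members, list genes with the largest called changes or needed for the text, and the 5 most similar rows per member by Pearson's r. Promoters were matched by symbol for 4 of 4 members. Alternatives were other scalings, pseudocounts, filters, thresholds, sample sets, the animal block and leaving out each limb.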

Additional observations from a re-analysis of the deposited data

Results flagged for a closer look

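Slc16a1 in the right limb of atrophy animal 3 (control replicate 9) was at 119 CPM, and the next control limb was at 85.2 CPM. This gap was 0.749 of the range of the 9 control limbs and marked the limb as far from the others. The same limb had the lowest Slc16a3 of the control group, at 124 CPM. Of 5 sets of control values examined in this way (the 4 members and the second Bsg row) it was the only one so marked, and chance marks about 1 in 20. Sham right limbs 1 and 3 also combined high Slc16a1 (110 and 123 CPM) with low Slc16a3 (126 and 117 CPM). The cause was not tested.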

How the results depend on the processing

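The 3 members called after repeated atrophy against control stayed within 1.5 times that count in all 30 alternatives. The 2 called after atrophy became 0 against the animals' own right limbs and 0 with the fixed replicate block, and ranged from 0 to 2 as single limbs were left out. The 2 called between recovery and atrophy became 0 with the fixed replicate block and 0 when only the groups compared were fitted, and ranged from 0 to 2 as single limbs were left out. The 3 called between repeated atrophy and recovery became 0 with the fixed replicate block. The rows called over the whole table fell from 3171 to 1358 after atrophy when rescaled, and to 0 with the block. That block left 2 of 14031 rows called between recovery and atrophy and 12 between repeated atrophy and recovery. The block here is a fixed term. A random effect for each animal left 2, 0, 3, 2, 3 and 0 members called (atrophy, recovery and repeated atrophy against control, recovery against atrophy, repeated atrophy against recovery and against atrophy), as without a block, and 3170 rows after atrophy.

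Differences near 0 changed sign. Against control at recovery, Bsg was 0.078 with own right limbs and with the block, Slc16a3 was 0.057 against all 12 right limbs and ranged from −0.243 to 0.044 as single limbs were left out (highest without recovery replicate 3), and Slc16a1 ranged from −0.015 to 0.203 (lowest without recovery replicate 2). For sham left against control, Bsg ranged from −0.13 to 0.069 as single limbs were left out, and Slc16a1 was −0.092, −0.030 and −0.080 with the trimmed mean, quantile and median of ratios scalings. Slc16a1 in sham left against sham right ranged from −0.305 to 0.0030 (highest without sham left replicate 3). The cause was not tested.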
